A study of Mus musculus with 2 samples.

Results

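The transcription factors examined here direct progenitor cells of the intestinal crypt into the secretory lineages, and the group was given as a list of 10 gene symbols. All 10 were found by symbol in the table of 19294 genes. They are Atoh1, Spdef, Gfi1, Creb3l1, Creb3l4, Foxa1, Foxa2, Foxa3, Sox4 and Bhlha15. Expression was measured by mRNA-seq in mouse intestinal organoids (mIOs), which are epithelial cultures grown from crypts in Matrigel with EGF, Noggin and R-spondin. One library was made from control mIOs and 1 library from mIOs treated with dextran sulfate sodium (DSS), a polysaccharide used to injure gut epithelium, and both are labelled day 4. Both cultures carried the genotype Lgr5-EGFP-IRES-creERT2, in which EGFP and an inducible Cre are expressed from the stem cell gene Lgr5, and the crypts came from the jejunum. The age and sex of the mice and the DSS concentration used for sequencing were not given in the sources used here.

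In the crypt, a progenitor that escapes Notch signaling starts to express ATOH1, a basic helix-loop-helix (bHLH) factor required for all goblet, Paneth and enteroendocrine cells. GFI1 then steers such cells away from the enteroendocrine fate, SPDEF matures goblet and Paneth cells, and SOX4 acts in early enteroendocrine and tuft progenitors. FOXA1 and FOXA2 are forkhead factors used in goblet and enteroendocrine cells, with FOXA3 as the third member of their family. CREB3L1 and CREB3L4 are held in the endoplasmic reticulum (ER) membrane until proteases release them, and Bhlha15 encodes MIST1, a bHLH factor that builds the secretory apparatus of granule-rich cells such as Paneth cells.

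The regulatory sequence next to 4 of the genes is shown because these 4 lay furthest from a log2 ratio of 0 on either side, Atoh1 and Spdef being higher and Sox4 and Bhlha15 lower in DSS mIOs. Each window holds the 250 bases before the start of transcription, written along the strand of the gene, from RefSeq on the build GRCm38.p6. The windows are chr6:64728875-64729124 on the plus strand for Atoh1, chr17:27728952-27729201 on the minus strand for Spdef, chr13:28953700-28953949 on the minus strand for Sox4 and chr5:144190036-144190285 on the plus strand for Bhlha15. Capitals mark 3 motifs searched on both strands, namely the E-box CANNTG bound by bHLH dimers, the class C site CACGNG bound by HES repressors of the Notch pathway, and the core TGGGAA of sites for RBPJ, the DNA-binding partner of Notch. The E-box and the class C site share the form CACGTG, which occurs in none of these 4 windows.
Atoh1: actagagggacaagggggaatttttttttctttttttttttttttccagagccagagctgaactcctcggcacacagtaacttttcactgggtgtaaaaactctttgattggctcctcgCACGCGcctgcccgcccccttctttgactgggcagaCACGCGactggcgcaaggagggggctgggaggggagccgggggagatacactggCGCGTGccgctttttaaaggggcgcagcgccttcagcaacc
Spdef: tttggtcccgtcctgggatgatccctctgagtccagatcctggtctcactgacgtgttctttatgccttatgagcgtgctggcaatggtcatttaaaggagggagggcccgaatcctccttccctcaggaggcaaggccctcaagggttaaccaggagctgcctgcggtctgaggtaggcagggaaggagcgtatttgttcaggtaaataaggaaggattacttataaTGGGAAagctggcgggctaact
Sox4: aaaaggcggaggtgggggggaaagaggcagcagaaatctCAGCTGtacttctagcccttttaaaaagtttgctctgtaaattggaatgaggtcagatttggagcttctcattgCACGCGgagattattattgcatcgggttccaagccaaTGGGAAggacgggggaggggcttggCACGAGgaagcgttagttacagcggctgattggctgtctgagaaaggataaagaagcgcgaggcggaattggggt
Bhlha15: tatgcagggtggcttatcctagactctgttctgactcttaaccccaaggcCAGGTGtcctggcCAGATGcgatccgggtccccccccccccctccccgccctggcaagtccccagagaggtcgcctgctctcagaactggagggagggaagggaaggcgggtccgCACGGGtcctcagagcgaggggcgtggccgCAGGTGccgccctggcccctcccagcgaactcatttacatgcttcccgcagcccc

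The Atoh1 window held 3 class C sites, with first bases 131, 95 and 41 bases before the start, and no E-box. Of 32851 promoter windows of the same length, 23.5% held a class C site and 1.11% held 3 or more. The Bhlha15 window held 3 E-boxes and 1 class C site, and 12.2% of all windows held 3 or more E-boxes. The Sox4 window held 1 E-box, 2 class C sites and 1 RBPJ core, 100 bases before the start. Its E-box had the letters CAGCTG, a form used by ATOH1 and MIST1 dimers that was present in 13.001% of all windows and in 1 of the 14 windows listed for the group. The Spdef window held neither an E-box nor a class C site, and its RBPJ core began 22 bases before the start. An E-box was found in 66.2% and an RBPJ core in 21.6% of all windows. The forkhead heptamer TGTTTAC, present in 3.17% of all windows, was found in the Foxa1 window, and the CRE core TGACGT, bound by CREB-type factors and present in 6.47%, in the Spdef window. Windows were listed for 9 of the 10 genes, without Creb3l1. A match is a description of letters and not evidence of binding.

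The depth was 65493032 counts for control mIOs and 59746968 for DSS mIOs. Counts were divided by TMM-adjusted library sizes from edgeR and expressed as CPM, the counts expected in a library of 1e+06 reads. Each log2 ratio compares DSS with control mIOs and carries an exact Clopper-Pearson interval at 95%. Since each condition is 1 library, no value could be checked against a replicate, no test was run, and intervals cover counting error only. In bulk RNA, fewer cells of a type and less RNA per cell cannot be told apart. Levels of a gene set between genes are given per kb of transcript, using GENCODE vM21 lengths. The epithelial gene Epcam was at 941 CPM in control and 960 CPM in DSS mIOs. The list of 7 epithelial genes that holds Epcam summed to 6392 and 10489 CPM, with a median log2 ratio of 0.84. The label names the cells as intestinal stem cells, and the stem cell gene Lgr5 was at 263 CPM in control mIOs but 19.2 CPM in DSS mIOs. The 10 cycling cell genes summed to 1615 and 255 CPM. Of 8 mesenchymal genes, 4 were listed, with summed levels of 1.44 and 2.10 CPM. The 5 immune genes analysed had sums of 14.3 and 24.9 CPM, and the leukocyte genes Ptprc and Cd3e were not among them.

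The 10 factors did not all lie on one side. With TMM scaling, 6 had a log2 ratio above 0 and 4 below 0, beside 48.0% and 52.0% of the 17235 genes with 10 or more counts in either library, and the values ran from -2.18 for Sox4 to 3.25 for Atoh1. Their median was 0.28, beside -0.06 over all those genes. Atoh1, Spdef and Creb3l4 were at 1 or more, as were 19.3% of all genes, and Sox4 and Bhlha15 were at -1 or less, as were 20.2%. At 2 or more were Atoh1 and Spdef, beside 7.87% of all genes, and at -2 or less Sox4 and Bhlha15, beside 6.54%. The counting interval lay above 0 for 5 factors and for 38.7% of all genes, below 0 for 4 factors and for 42.7% of all genes, and included 0 for 1 factor and for 18.6% of all genes. At the line of 1, these shares of the 10 factors were near those of all genes.

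**Figure D1:**
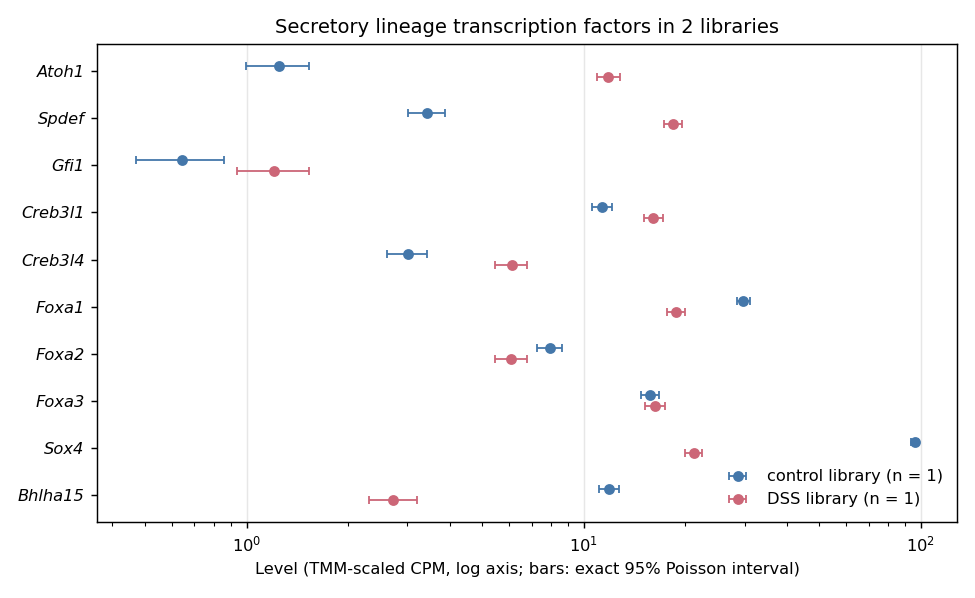
Level of each factor in control mIOs (blue) and DSS mIOs (red) in TMM-scaled CPM on a log axis, 1 library each, with exact 95% Poisson intervals for counting error. Atoh1 and Spdef lie far to the right in DSS, Sox4 and Bhlha15 far to the left, and the points of Foxa3 overlap at 15.7 and 16.3 CPM.

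Atoh1, the first factor of the secretory program, had 89 counts in control mIOs and 647 counts in DSS mIOs. This was 1.24 CPM (95% interval 0.999 to 1.53) and 11.8 CPM (10.9 to 12.8), a 9.52-fold higher level in DSS. The log2 ratio of 3.25 had an interval from 2.93 to 3.59 and exceeded that of 97.6% of all genes. Among the 10 factors, Atoh1 was the ninth in level per kb in control mIOs and the fifth in DSS mIOs.

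Spdef, the ETS factor of goblet and Paneth cell maturation, had 245 counts in control mIOs and 1007 in DSS mIOs. Its level was 3.42 CPM (3.01 to 3.88) and 18.4 CPM (17.3 to 19.6), and its log2 ratio was 2.43 (2.22 to 2.64), higher than that of 94.7% of genes. Per kb, Spdef was the eighth of the 10 factors in control mIOs and the first in DSS mIOs. The ratio of Spdef to Atoh1 counts was 2.75 in control mIOs and 1.56 in DSS mIOs. Their log2 ratios differed by -0.82 (-1.22 to -0.44), an interval that excludes 0, and this difference does not depend on library scaling.

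Gfi1, a zinc finger repressor that acts after ATOH1, was the factor with the fewest reads. It had 46 counts in control mIOs and 66 in DSS mIOs, or 0.643 CPM (0.471 to 0.857) and 1.21 CPM (0.934 to 1.54). The log2 ratio was 0.91, just short of 1, and its interval ran from 0.34 to 1.49. The log2 ratio of Gfi1 minus that of Atoh1 was -2.34, with an upper bound of -1.67, and there were 1.93 counts of Atoh1 per count of Gfi1 in control mIOs and 9.80 in DSS mIOs.

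Both ER-anchored factors were higher in DSS mIOs. Creb3l1, also called OASIS and used in goblet cell maturation, had 813 counts in control mIOs and 880 in DSS mIOs, which was 11.4 CPM (10.6 to 12.2) and 16.1 CPM (15.0 to 17.2). Its log2 ratio of 0.50 (0.36 to 0.64) was 0.25 when scaled by total counts. Creb3l4 had 215 and 334 counts, or 3.004 CPM (2.62 to 3.43) and 6.11 CPM (5.47 to 6.80). The log2 ratio of Creb3l4 was 1.02 (0.77 to 1.28), just past 1, and 0.77 with total counts. Between the pair, the log2 ratio of Creb3l1 minus that of Creb3l4 was -0.52 (-0.81 to -0.23).

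The 3 forkhead factors differed from each other. Foxa1 had 2129 counts in control mIOs and 1030 in DSS mIOs, or 29.7 CPM (28.5 to 31.0) and 18.8 CPM (17.7 to 20.0), with a log2 ratio of -0.66 (-0.77 to -0.55). Foxa2 had 567 and 333 counts, or 7.92 CPM (7.28 to 8.60) and 6.09 CPM (5.45 to 6.78), with a log2 ratio of -0.38 (-0.58 to -0.18). Foxa3 had 1125 and 890 counts and nearly the same level in both libraries, 15.7 CPM (14.8 to 16.7) and 16.3 CPM (15.2 to 17.4). The log2 ratio of Foxa3 was 0.05 (-0.08 to 0.18) and turned to -0.21 with total counts, so its direction was not determined. The order Foxa1, Foxa2, Foxa3 from lowest to highest ratio does not rest on the scaling. The difference was -0.71 (-0.88 to -0.54) between Foxa1 and Foxa3, -0.43 (-0.67 to -0.19) between Foxa2 and Foxa3, and -0.28 (-0.51 to -0.05) between Foxa1 and Foxa2. Foxa1 overlaps the gene Ttc6 in the RefSeq annotation, and whether counting used the strand is not given in the sources used here. Ttc6 had 179 counts in control mIOs and 96 in DSS mIOs, few beside those of Foxa1.

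Sox4, an HMG box factor of early secretory progenitors, was the most abundant of the 10 in control mIOs. It had 6870 counts in control mIOs and 1158 in DSS mIOs, or 96.0 CPM (93.7 to 98.3) and 21.2 CPM (20.0 to 22.4), a 4.53-fold lower level in DSS. The log2 ratio was -2.18 (-2.27 to -2.09), and 5.34% of all genes had a lower one. Per kb, Sox4 was the first in control mIOs and the sixth in DSS mIOs. A long noncoding gene that overlaps it in the annotation, Gm46405, had 13 counts in control mIOs and 2 in DSS mIOs.

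Bhlha15, which encodes MIST1, had 850 counts in control mIOs and 149 in DSS mIOs. This was 11.9 CPM (11.1 to 12.7) and 2.73 CPM (2.31 to 3.20), a 4.36-fold lower level, with a log2 ratio of -2.12 (-2.38 to -1.87). Of the 2 bHLH factors of the group, Atoh1 thus had the highest log2 ratio and Bhlha15 the lowest but for Sox4. The control library held 9.55 counts of Bhlha15 per count of Atoh1, while the DSS library held 4.34 counts of Atoh1 per count of Bhlha15. The difference of their log2 ratios, -5.37 (-5.80 to -4.95), was close to the -5.43 (-5.78 to -5.09) between Sox4 and Atoh1. In all, 13 differences between factors were computed, most of them against Atoh1, the factor with the highest ratio. The interval of each excluded 0 for counting error only, and differences between other genes were not computed for comparison.

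**Figure D2:**
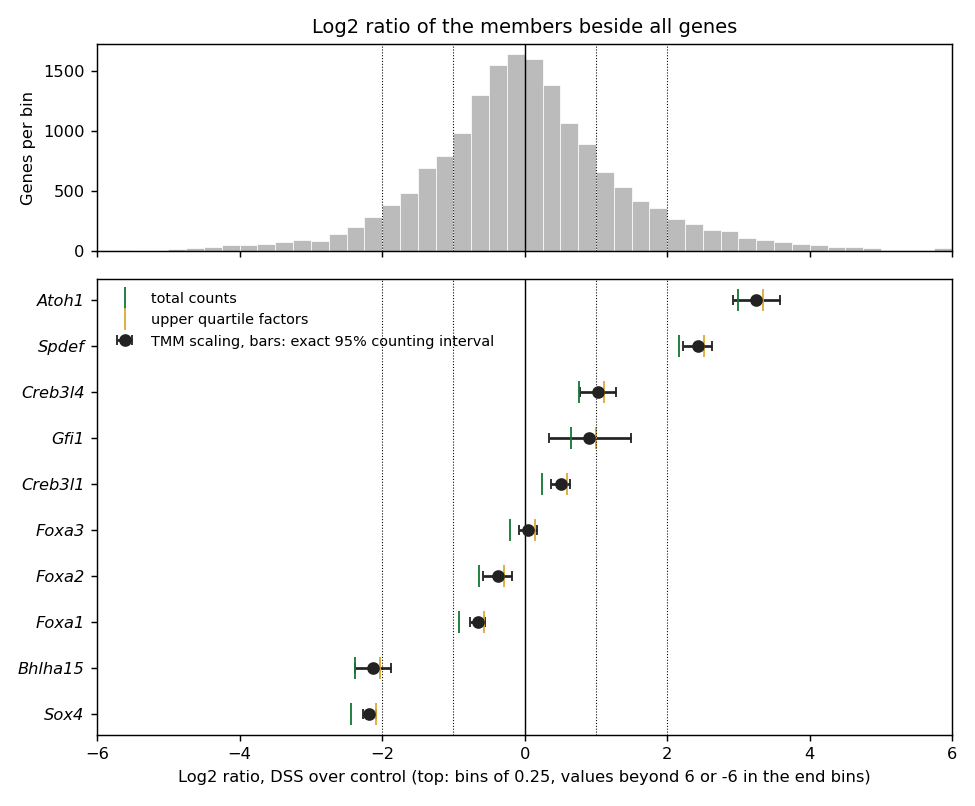
Lower panel, log2 ratio of each factor, DSS over control, with TMM scaling (black, bars show the exact 95% counting interval), total counts (green) and upper quartile factors (yellow). The upper panel counts all 17235 genes in bins of the same axis. Dotted lines mark 1 and 2 in each direction, and Foxa3 is the factor whose sign differs between scalings, from -0.21 to 0.14.

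The levels per kb of the 10 factors lay between 0.244 and 20.0 CPM per kb in control mIOs and between 0.457 and 9.59 in DSS mIOs. The counts of the group summed to 12949 in control mIOs and 6494 in DSS mIOs, a log2 ratio of -0.61 (-0.65 to -0.56). Without Sox4 the sums were 6079 and 5336 counts, and the log2 ratio was 0.20 (0.15 to 0.25). Sox4 held 53.1% of the group's counts in control mIOs and 17.8% in DSS mIOs. Per kb, its share was 37.5% and 9.17%, the share of Spdef was 3.34% and 19.9%, and the share of Atoh1 was 1.10% and 11.6%.

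In control mIOs, the order of levels per kb was Sox4 at 20.0 CPM per kb, Foxa1 at 9.32, Foxa3 at 7.72, Creb3l1 at 4.36, Foxa2 at 3.83, Bhlha15 at 3.40, Creb3l4 at 2.14, Spdef at 1.78, Atoh1 at 0.586 and Gfi1 at 0.244. The intervals of Creb3l1 and Foxa2, of Foxa2 and Bhlha15, and of Creb3l4 and Spdef overlapped. In DSS mIOs, the order was Spdef at 9.59 CPM per kb, Foxa3 at 7.99, Creb3l1 at 6.18, Foxa1 at 5.90, Atoh1 at 5.58, Sox4 at 4.42, Creb3l4 at 4.35, Foxa2 at 2.94, Bhlha15 at 0.780 and Gfi1 at 0.457. There the intervals of Creb3l1 and Foxa1, of Foxa1 and Atoh1, and of Sox4 and Creb3l4 overlapped. Gfi1 was thus last in both libraries.

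**Figure D3:**
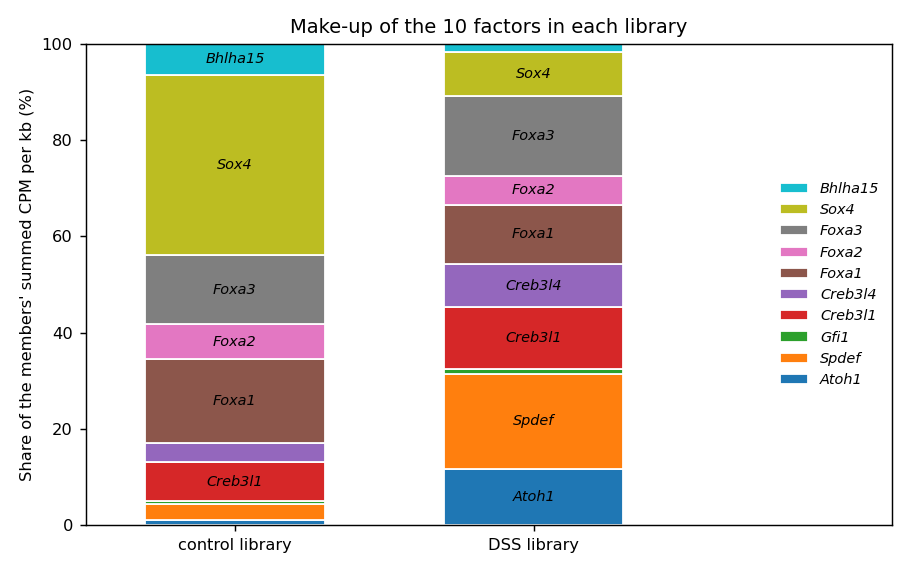
Share of each factor in the summed CPM per kb of the 10 factors, in percent, for the control library (left) and the DSS library (right), 1 library each. The share of Sox4 is 37.5% on the left and 9.17% on the right, and that of Spdef 3.34% and 19.9%.

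Close relatives of the factors are given by family. All 5 genes of the CREB3 family had log2 ratios above 0, beside 48.0% of all genes. Creb3l3, a factor of lipid handling in enterocytes and liver, was at 4.06 (3.99 to 4.14), with 1471 counts in control mIOs and 18787 in DSS mIOs. Creb3l2 was at 2.19 (2.12 to 2.27) and Creb3 at 0.96 (0.86 to 1.06), so Creb3l1 at 0.50 was the lowest of the family. Among SOX genes of the same subgroup, Sox12 was at -3.05 (-3.40 to -2.73), with 892 and 82 counts, on the same side as Sox4. Among epithelial ETS factors, Spdef at 2.43 stood opposite Ehf at -2.48 (-2.58 to -2.39), while Elf3 was at -0.17 (-0.21 to -0.14). Atoh7 had 29 and 57 counts, with a log2 ratio of 1.36 (0.69 to 2.06). Atoh8, Gfi1b, Sox11, Elf5 and Bhlha9 are not listed and were not analysed here, since the table holds only genes with a count in both libraries.

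Genes of the proteins that the factors work with were given by 4 lists, to be read against the 52.0% of all genes below 0. ATOH1 and MIST1 bind DNA as dimers with E proteins, and all 3 E protein genes were below 0, with Tcf3 at -1.22 (-1.29 to -1.14), Tcf12 at -0.91 (-0.98 to -0.84) and Tcf4 at -0.52 (-0.68 to -0.37). ID proteins block such dimers by binding the E protein, and Id1 was at -0.38 (-0.50 to -0.26), Id2 at -0.23 (-0.33 to -0.12) and Id3 at 0.09 (-0.08 to 0.26), or -0.17 with total counts. Id4 stood apart at 4.68 (3.77 to 5.76), with 10 counts in control mIOs and 196 in DSS mIOs. Of the 6 genes of the GFI1 corepressor complex, 5 were below 0, with the corepressor Rcor2 at -1.84 (-1.98 to -1.70) and the deacetylase Hdac2 at -1.76 (-1.85 to -1.68). The others were Hdac1 at -0.76, the demethylase Kdm1a at -0.57, Rcor1 at -0.44 and Rcor3 at 0.15, which was -0.11 with total counts. The proteases that release CREB3L factors from the membrane were at -0.42 for Mbtps1 and -0.98 for Mbtps2. Tmed2 and Scap, which serve transport between ER and Golgi, were both at -0.40.

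Of the 16 Notch pathway genes listed, 5 were above 0 and 11 below, with a median of -0.73, and upper quartile factors put 6 above 0. Of all genes, 48.0% were above 0, with a median of -0.06. Lfng, a glycosyltransferase that modifies Notch receptors, had the lowest value at -3.17 (-3.56 to -2.80). The ligand gene Jag2 was at -1.52 (-1.64 to -1.40), the receptor genes Notch1 at -0.99 (-1.07 to -0.91) and Notch2 at -1.12 (-1.27 to -0.98), and Rbpj at -0.70 (-0.79 to -0.62). Dll1, a ligand presented by secretory progenitors, was on the side of Atoh1 at 1.14 (1.03 to 1.25), with 1093 and 1839 counts. The ligand gene Dll4 was at 0.61 (0.47 to 0.76). Maml2 had the highest value of the list at 1.40 (1.03 to 1.78), with 91 and 184 counts. Nrarp was at -1.02 (-1.17 to -0.87), with 1281 and 483 counts, and Hes5 and Hey2 are not listed. Hes1, which encodes a repressor of Atoh1, had a log2 ratio of 0.30 (0.23 to 0.37), which was 0.04 with total counts. It had 3077 counts in control mIOs and 2893 in DSS mIOs, 43.0 and 52.9 CPM. The part of Notch signaling in the level of Atoh1 was not tested.

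Other factors of the secretory lineages lay on both sides. Of 20 genes, 14 were above 0 and 6 below, beside 48.0% of all genes above 0, with 11 at 1 or more and 3 at -1 or less. With total counts, 13 were above 0 and 9 were at 1 or more, the latter beside 2659 of the 17235 genes. The enteroendocrine factors Lmx1a and Pax6 were at 2.33 (2.09 to 2.56) and 2.10 (1.85 to 2.37), Insm1 at 1.48 and Neurod1 at 1.14. Pax4, with 40 counts in control mIOs and 19 in DSS mIOs, was at -0.69 (-1.56 to 0.14), an interval that includes 0. Neurog3, the factor that starts the enteroendocrine fate, was at -3.14 (-3.54 to -2.76), with 692 counts in control mIOs and 60 in DSS mIOs. Pou2f3, required for tuft cells, was at -2.20 (-2.74 to -1.70), and Sox9, required for Paneth cells, at -1.86. Klf4, used in goblet cells and elsewhere in the upper epithelium, was at 1.47 (1.42 to 1.52). Xbp1, the ER stress factor of secretory cells, was at -0.02 (-0.06 to 0.01). Of 15 factors of the absorptive lineage, 11 were above 0 with TMM scaling, 8 with total counts and 12 with upper quartile factors. Their TMM median was 0.34, with Hnf4g the highest at 2.24 (2.19 to 2.28) and Cdx2 the lowest at -1.35 (-1.40 to -1.30).

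The products of the cells that use these factors are given beside them. Of all genes, 48.0% were above 0, 52.0% below 0, 19.3% at 1 or more and 20.2% at -1 or less. Of 13 goblet cell genes, 13 were above 0, and their summed level was 1637 CPM in control mIOs and 14520 CPM in DSS mIOs. Tff3, a goblet cell peptide, was at 2.55 (2.53 to 2.58) and the mucin gene Muc2 at 4.98. Ern2, an ER stress sensor of goblet cells, was at 2.25 (2.07 to 2.44). All 16 enteroendocrine genes were at 1 or more, with a sum of 941 and 4973 CPM, while Sox4 and Neurog3, both of early enteroendocrine progenitors, were at -2.18 and -3.14. Chga, 1 of the 16, was at 2.60 (2.56 to 2.64). Unlike these libraries, RT-PCR in the paper found Muc2 and Chga little changed with DSS, and it found Lgr5 and Lyz decreased. Whether both measurements used the same RNA was not given in the sources used here. Of 9 Paneth cell genes other than defensins, 7 were below 0 and 2, Reg3g at 0.41 and Sntb1 at 0.78, above 0. Sntb1 had 19 and 25 counts, and its interval of -0.13 to 1.73 included 0. Among the 7 were Lyz1, the lysozyme of Paneth cells, at -1.06 and Kcnn4, a potassium channel, at -3.14 (-3.62 to -2.69). Of the factors used in Paneth cells, Bhlha15 at -2.12 and Sox9 at -1.86 were below 0, and Atoh1 at 3.25 and Spdef at 2.43 above 0. Gfi1, which steers cells away from the enteroendocrine fate, was also above 0, at 0.91 (0.34 to 1.49). All 10 enterocyte genes were at 1 or more, and 9 were with total counts. Of 7 tuft cell genes, 6 were below 0 with TMM scaling, for some of which the counting interval included 0. Ptgs1, with 6 and 33 counts, was at 2.85 (1.57 to 4.39), and upper quartile factors put 2 of the tuft cell genes above 0. The summed level of the tuft cell genes was 7.11 and 5.10 CPM. Sox4 and Bhlha15 also lay on the side of the stem cell genes, of which 10 of 10 were at -1 or less, with a median of -3.68, and of the cycling cell genes, with a median of -4.14. The part of these cell types and of cycling cells in the values of the 10 factors was not tested.

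**Figure D4:**
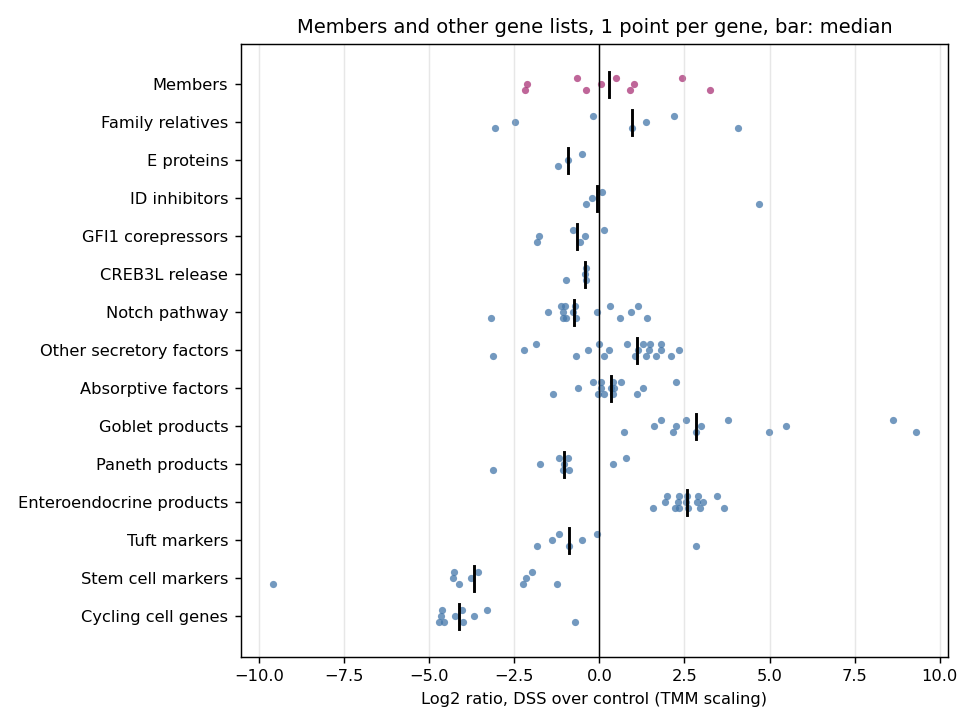
Log2 ratio, DSS over control, with TMM scaling for each gene of the 10 factors (purple) and of 14 other gene lists (blue), 1 point per gene with 10 or more counts in either library, black bars at list medians. The 10 factors spread from -2.18 to 3.25 around a median of 0.28, while goblet products lie above 0 and stem cell markers below 0.

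Genes of the secretory apparatus, which MIST1, XBP1 and CREB3L factors are known to control, were also split. Of 16 genes, 7 were above 0 and 9 below, with a median of -0.05, beside 48.0% of all genes above 0. With total counts 5 were above 0 and with upper quartile factors 10, so the majority side depended on the scaling. The COPII coat genes Sec24d at 1.41 (1.35 to 1.47) and Sec23a at 1.35 (1.30 to 1.39) were higher, as was the ER chaperone cofactor Dnajb9 at 1.75 (1.66 to 1.84). The ER folding genes Pdia4 at -1.48 (-1.56 to -1.41) and Hsp90b1 at -1.07 (-1.09 to -1.04) were lower. Rab3d, a vesicle gene known as a target of MIST1, was at -0.04 (-0.12 to 0.03), beside the -2.12 of Bhlha15. It had 3439 counts in control mIOs and 2547 in DSS mIOs. The lowest value of the list was that of Copz2 at -3.78 (-6.88 to -1.82), with 36 and 2 counts. The highest was that of Serpini1 at 1.94 (1.65 to 2.23), with 131 and 383 counts. The part of Bhlha15 in the values of these genes was not tested.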

How the data were processed

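mRNA-seq libraries (TruSeq Stranded mRNA) of 1 control and 1 DSS-treated mIO culture were analyzed, grouped by the treatment label. Raw counts of reads per gene, not normalized, were deposited by the authors, with RefSeq transcript identifiers. HISAT2 and StringTie are named in the submitters' processing notes, and versions, genome build, annotation and strand setting were not given in the sources used here. The files of the single samples are named for FPKM but hold the same counts for all 19294 genes. The smallest count is 1, so a gene without reads in either culture is absent from all numbers.

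Counts were scaled with TMM in edgeR 4.0.16 (R 4.3.3). Log2 ratios carry exact Clopper-Pearson 95% intervals, levels exact Poisson intervals, and differences between 2 factors the exact interval of the odds ratio (scipy 1.17.1). Single reads are not independent molecules, so intervals cover counting error only. No test between conditions was possible with 1 library each. Gene shares were taken over the 17235 genes with 10 or more counts in either library. Lengths came from the GENCODE vM21 transcript matched to the RefSeq identifier. Promoters were matched by symbol, and motifs searched in the 250 bases before the start. The ratio and interval code was tested on simulated counts.

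The 10 factors and the gene lists were chosen with earlier results of these data known. Named genes were taken from all 10 factors, their relatives, the lists of 7 or fewer genes, those among the 3 with the largest absolute ratios in each other list and 50 or more counts, and fixed anchor genes. Single genes of the epithelial, mesenchymal, immune and tuft lists are mostly not printed. Outside that rule, and named after their values were seen, were Notch1, Notch2, Rbpj, Nrarp, Dll4, Pax6, Pax4, Insm1, Neurod1, Reg3g, Sntb1, Sox9, Klf4 and Xbp1. The same holds for Ern2, Sec23a, Sec24d, Hsp90b1, Rab3d, Copz2, Ptgs1, Ttc6 and Gm46405. Alternatives were total counts, DESeq2 1.42.0 size factors, upper quartile factors, totals without the 100 most abundant genes, 2 counts added to each value, binomial thinning of the control library to the DSS depth, other count filters, the mean and the longest transcript. Centering on the median of all genes was added after seeing the data.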

Additional observations from a re-analysis of the deposited data

How the results depend on the processing

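Of the 70 values of single factors under 7 alternatives, 60 stayed inside the counting interval of the TMM value and 10 moved outside it, 7 of them with total counts. Total counts lowered the median of all genes by 0.26, from -0.06 to -0.31, and every factor alike. The sign was kept for 9 of 10 factors, and Foxa3 ran from -0.21 to 0.14. The median of the 10 factors, 0.28 with TMM, was 0.021 with total counts and 0.15 with totals that left out the 100 most abundant genes. With each of these 2 scalings, 2 factors were at 1 or more, beside 3 with TMM. Thinning of the control library also gave 3, but with Gfi1 at 1.17 in place of Creb3l4 at 0.996. Of all genes past 1 in either direction, 48.9% were higher in DSS with TMM and 37.1% with total counts, and past 2 the shares were 54.6% and 41.7%. The order of levels per kb was the same with the longest transcript. No paired analysis was possible because each condition has 1 library, and leaving out a library leaves no comparison. The Atoh1 and Gfi1 ratios rest on 89 and 46 control counts, and variation between cultures was not measured.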
